A study of Caenorhabditis elegans with 12 samples.

Results

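The nuclear hormone receptor genes described here are those whose symbol begins with nhr- followed by a number and that had at least 10 counts in at least 3 libraries. This rule took 175 of the 269 nhr genes in a table of 45132 genes, and all 175 were among the 12850 genes tested. Nuclear hormone receptors are transcription factors that join a zinc-finger DNA-binding domain to a ligand-binding domain, and many of them switch genes on or off when a lipid, a steroid or another small molecule binds. Caenorhabditis elegans has far more of these genes than insects or mammals have, and most belong to a group related to the vertebrate HNF4 receptor that expanded within nematodes. The best studied worm receptors act in the intestine on fat burning and desaturation, on vitamin B12 and propionate metabolism, and on detoxification, while a smaller, conserved set times moulting and cell fate decisions.

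The RNA came from whole worms of the strain glp-4(bn2) on day 1 of adulthood, and every group, the controls included, carried this mutation, which keeps the germline from developing at the restrictive temperature. Worms ate bacteria carrying the empty RNAi vector L4440 (control) or RNAi against prp-19, a splicing factor, and were left so or also received RNAi against atp-2, a subunit of the mitochondrial ATP synthase. This gave 4 groups of 3 libraries each: the controls, the atp-2 group (empty vector, then atp-2 RNAi), the group on prp-19 RNAi, and the combined group on prp-19 and atp-2 RNAi. No label says whether the 3 libraries of a group came from separate cultures, so p-values measure the spread between these samples, which may be technical.

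Library totals were 6731808 to 8802767 counts. Levels are given as CPM, counts scaled to library size, with the SD over n = 3 libraries. The atp-2 mRNA stood at 1621 ± 15.4 CPM in the controls, 267 ± 16.3 CPM in the atp-2 group, 1015 ± 146 CPM in the group on prp-19 RNAi and 505 ± 7.45 CPM in the combined group. The prp-19 mRNA went against its label: it was 26.5 ± 1.96 CPM in the controls and 54.4 ± 25.9 CPM on prp-19 RNAi (log2 fold change 1.04, edgeR adjusted p = 0.0401, a call lost under 9 alternatives), so that group is called prp-19-labelled. With atp-2 RNAi it was 27.8 ± 0.208 CPM in the atp-2 group and 29.4 ± 11.4 CPM in the combined group. In the prp-19-labelled group replicate 3 stood apart from replicates 1 and 2 in many genes. All 6 markers of each of intestine, hypodermis, muscle and neurons were detected in every group. In RNA from whole worms, fewer cells of a type and less RNA per cell cannot be told apart. The summed level of 8 germline markers was 48.4 to 63.0 CPM in the controls, 72.1 to 75.4 CPM in the atp-2 group, 171.8 to 201.7 CPM in the prp-19-labelled group and 159.8 to 175.5 CPM in the combined group. The summed level of 6 intestinal markers was 5630 to 6670, 5273 to 5382, 3508 to 5550 and 5014 to 5144 CPM in the same order, and that of 6 hypodermal markers was 1732 to 1908, 3066 to 3236, 2226 to 2640 and 2738 to 2798 CPM. Most of the intestinal sum was asp-1 (means of 4499, 4090, 3010 and 3713 CPM). Most of the hypodermal sum was col-19 (1532, 2921, 2152 and 2490.5 CPM). Single markers differed in direction. In the atp-2 group against the controls, 2 hypodermal markers were called higher and 1 lower. In the prp-19-labelled group, 1 intestinal marker was called higher and 3 lower. The part of these marker levels in the receptor results was not tested.

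The receptor genes were expressed at low levels. Together they took 0.250% ± 0.00267 (SD, n = 3) of the counts in the controls, 0.295% ± 0.00159 in the atp-2 group, 0.320% ± 0.0291 in the prp-19-labelled group and 0.309% ± 0.00706 in the combined group. Libraries were then scaled by TMM factors, which allow for a few very abundant genes taking different shares of the reads. On that scale the receptors summed to 3053 ± 89.1, 2999 ± 10.2, 2801 ± 51.5 and 2859 ± 36.98 CPM in the same order. The order of the controls thus depended on the scale, from the lowest share of raw counts to the highest summed TMM-scaled level. The mean over all 12 libraries was at least 10 CPM for 89 of the 175 receptors and at least 100 CPM for 2 of them, and the 10 most abundant receptors held 29.3% of the summed level. All 12 libraries had at least 10 counts for 155 receptors, and between 4 and 11 libraries did for the other 20. Just outside the rule were nhr-60, nhr-113, nhr-247 and nhr-254, with at least 10 counts in 2 libraries and 70, 66, 122 and 43 counts in all.

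Levels of different genes were compared per kilobase of exon, as RPKM. The median receptor stood at 6.97 RPKM over all libraries. In the controls nhr-27 had the highest level, 140 ± 27.3 RPKM (SD, n = 3), but its exons overlap those of gei-3 on the same strand, so its reads are uncertain. The next were nhr-17 at 80.4 ± 11.5 RPKM and nhr-76, which regulates fat in response to serotonin, at 70.8 ± 2.52 RPKM. These neighbours in the order did not differ beyond their spread. Then came nhr-68, an activator of propionate breakdown, at 54.1 ± 2.55 RPKM, nhr-49, the main regulator of fasting and fat oxidation genes, at 42.6 ± 2.11 RPKM, and nhr-69 at 41.9 ± 1.62 RPKM. The levels of nhr-49 and nhr-69 lay within 1 SD of each other. Below them nhr-114 (32.9 ± 5.33 RPKM), nhr-31 (32.3 ± 2.55 RPKM), nhr-3 (30.3 ± 0.215 RPKM), and nhr-8 (30.0 ± 3.15 RPKM) did not differ beyond their spread, and nhr-97 followed at 26.2 ± 0.380 RPKM. In the combined group nhr-17 was at 10.5 ± 0.377 RPKM and nhr-68 at 92.0 ± 3.20 RPKM, so the order at the top changed with the treatment.

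Most of the receptor genes lie on chromosome V. Of the 175 genes, 108 (61.7%) lie on chromosome V, 25 on IV, 18 on X, 11 on II, 8 on I and 5 on III of the WBcel235 assembly. Of the 12850 genes tested, 2557 lie on chromosome V. The receptors formed 55 pairs of direct neighbours, 48 of them on chromosome V, and 82 receptors belonged to such a pair. Neighbouring pairs within other gene families were not counted. Their median exon length was 1445 bases, against 1164 bases over 19884 protein-coding genes, and their median number of introns was 6, against 4. The exons of 45 receptors overlap another gene, 13 of them on the same strand, and since the strand setting of the counting was not given in the sources used here, reads of such genes cannot be told apart from those of their partner.

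**Figure D1:**
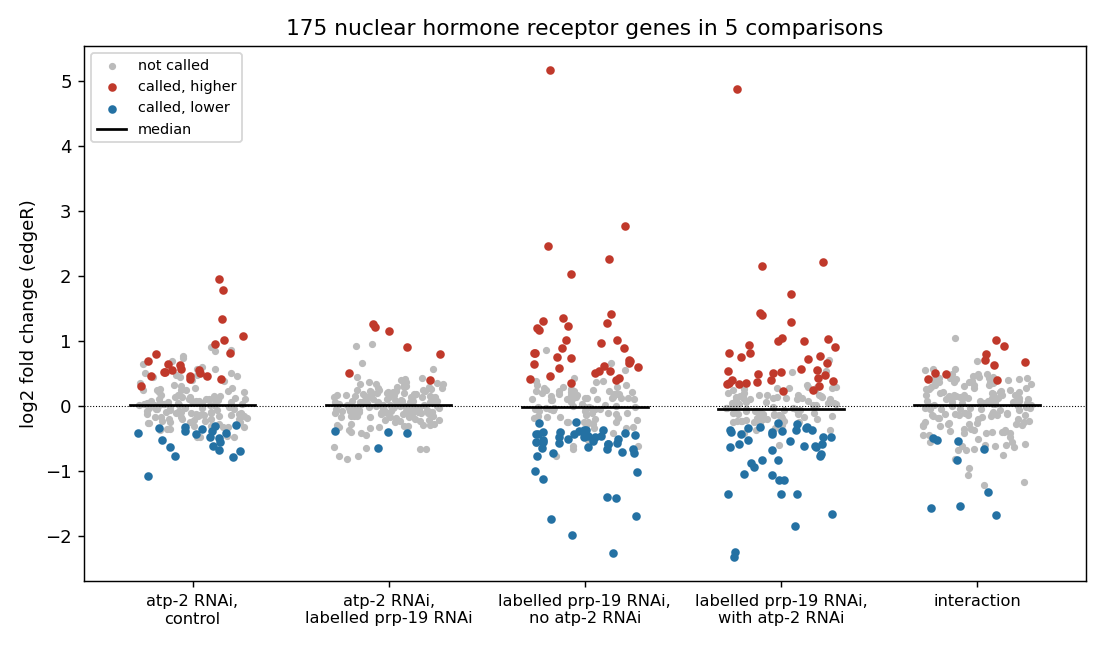
Log2 fold changes of all 175 nuclear hormone receptor genes in the 4 pairwise comparisons and the interaction, 1 point for each gene and a line at the median, coloured by whether the gene passed the test (edgeR adjusted p under 0.05). In the control background atp-2 RNAi moved 23 genes up and 21 down, and the prp-19 comparisons moved similar numbers up and down on the TMM scale used here, with nhr-2 far above the rest.

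In the control background, RNAi against atp-2 moved a minority of the receptors, most of them by less than 2-fold. Genes counted as called had an edgeR quasi-likelihood p, adjusted by the Benjamini-Hochberg method over all 12850 genes, below 0.05. Against the controls, 44 of the 175 receptors (25.1%) were called in the atp-2 group, 23 higher (13.1%) and 21 lower (12%). Of all genes tested 34.1% were called, 17% higher and 17.1% lower. The median log2 fold change was 0.02 over the receptors and 0.03 over all genes tested. In all 44 the 3 libraries with atp-2 RNAi did not overlap the 3 without, as in 98.5% of all genes called. The split by direction depended on the scale: with library totals instead of TMM factors, 54 receptors were higher and 6 lower, while the median of all genes tested itself moved to 0.29. A change of at least 2-fold was seen in 6 called receptors (3.43%), 5 of them higher, beside 8.41% of all genes tested.

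The receptor that rose most was nhr-61, a gene on chromosome II (WBcel235, II:14816136-14818543, minus strand). The 3 control libraries had 10.05, 9.05 and 9.36 CPM and the 3 libraries with atp-2 RNAi had 39.1, 38.1 and 32.5 CPM. Every treated library was more than 3 times any control library (log2 fold change 1.94, SE 0.12, edgeR adjusted p = 2.05e-10). W01D2.1, which overlaps nhr-61 on the other strand, changed by -0.27, in the opposite direction. The level of nhr-115 (V:2292540-2294800, plus strand) was 3.83, 3.55 and 3.71 CPM in the controls and 12.03, 10.3 and 15.97 CPM with atp-2 RNAi, again without overlap (log2 fold change 1.77, SE 0.19, edgeR adjusted p = 6.61e-07). Its direct neighbour nhr-226 also rose, by 0.82 on the log2 scale. The hypoxia-responsive receptor gene nhr-57, a known target of the factor HIF-1, went from 26.2, 28.05 and 25.3 CPM to 47.0, 57.3 and 63.2 CPM (log2 fold change 1.07, SE 0.14, edgeR adjusted p = 9.99e-06). All 3 treated libraries lay above all 3 controls. The exons of nhr-57 overlap those of lgc-1 on the same strand, and lgc-1 was counted at 1.41 CPM in the controls and 2.66 CPM with atp-2 RNAi. Reads of the 2 genes cannot be told apart where they overlap, and the part of lgc-1 was not tested. Also called higher were 3 receptors with changes of about 2-fold or more: nhr-210 by 1.02, nhr-137 by 0.95 and nhr-147 by 1.34 on the log2 scale, the last from only 1.32 ± 0.861 CPM.

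**Figure D2:**
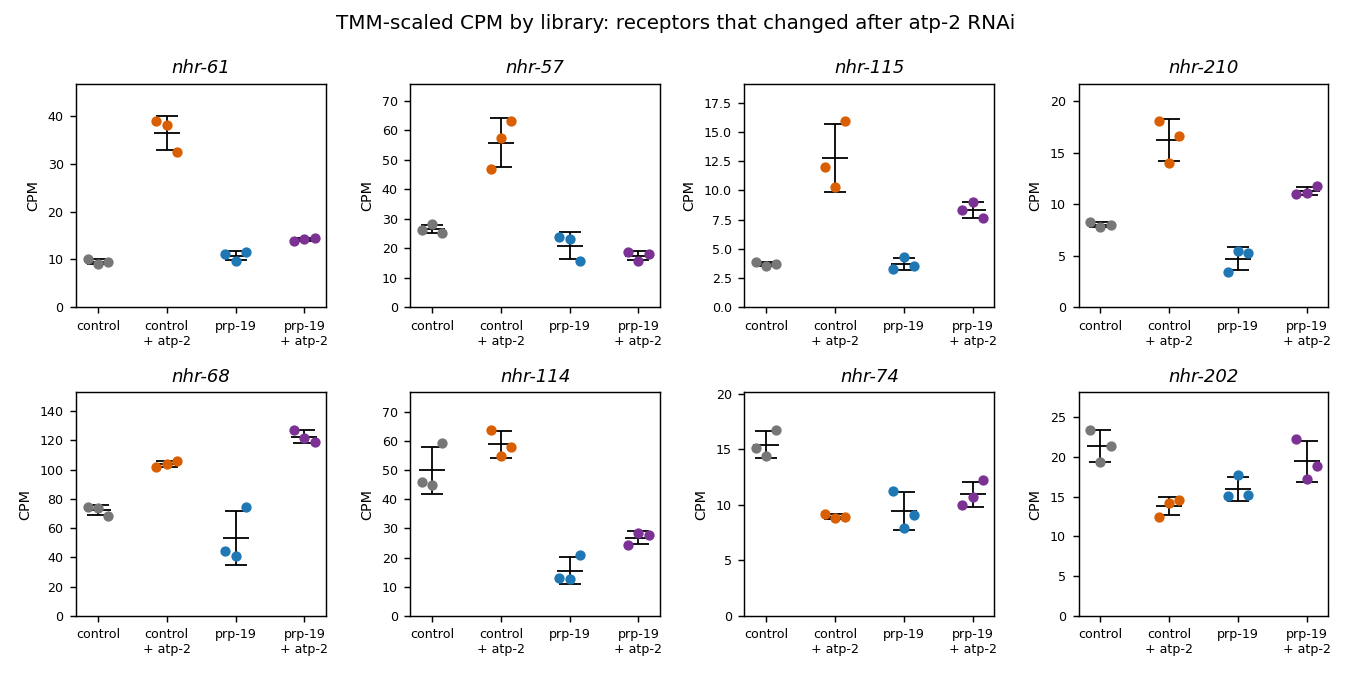
TMM-scaled CPM of 8 receptor genes in each of the 12 libraries (points), with the group mean and SD (bars, n = 3), in the order controls, atp-2 group, prp-19-labelled group and combined group. The genes nhr-61 and nhr-57 were high in the atp-2 group alone, nhr-115 and nhr-210 were high in both groups with atp-2 RNAi, and nhr-74 and nhr-202 were highest in the control group.

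Among the receptors that fell were 2 of the 8 moulting and conserved receptors tested, nhr-23 and nhr-85. The other 6 were not called, and of all genes tested 17.1% were called lower. The gene for NHR-23, the worm counterpart of the ROR receptors and a driver of moulting, was at 7.34, 7.99 and 7.60 CPM in the controls and 5.04, 4.63 and 3.68 CPM with atp-2 RNAi (log2 fold change -0.77, SE 0.16, edgeR adjusted p = 0.00119). The groups did not overlap. The Rev-erb relative nhr-85 stood at -0.68 (log2) and passed the test, but it did not pass with library totals (-0.41). Values were 15.2, 14.4 and 16.8 CPM in the controls and 9.16, 8.79 and 8.87 CPM with atp-2 RNAi for nhr-74 (log2 fold change -0.79, edgeR adjusted p = 2.34e-04). The 3 treated libraries lay close together and below all controls, and C27C7.9, which overlaps nhr-74 on the other strand, was at -0.78 too. The changes of nhr-43 and nhr-202 were -0.69 and -0.64 on the log2 scale, and nhr-202 shares exon sequence on the same strand with nhr-201. With library totals these 4 genes kept their direction and passed the test at smaller sizes, -0.50 for nhr-23, -0.52 for nhr-74, -0.42 for nhr-43 and -0.37 for nhr-202. The largest fall was that of nhr-17, from 115.1, 121 and 149 CPM to 68.2, 52.2 and 61.01 CPM (log2 fold change -1.09, SE 0.30, edgeR adjusted p = 0.0215). It no longer passed the test without control replicate 3 or without replicate 2 or 3 of the atp-2 group, at values of -0.97, -0.99 and -1.09.

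Fat and fasting regulators moved down where they were called, but the calls did not hold with library totals. Of 6 such receptors, 4 were called lower in the atp-2 group: nhr-49 (-0.35), its dimer partner nhr-66 (-0.39), nhr-62 (-0.52), which dietary restriction needs to extend lifespan, and nhr-76 (-0.42, all log2). The values for nhr-80, a regulator of fatty acid desaturation, and nhr-13 were -0.21 and -0.37, not called. Counts of nhr-49 corresponded to 86.1, 91.6 and 95.1 CPM in the controls and 70.0, 71.0 and 72.7 CPM with atp-2 RNAi, without overlap. None of the 4 calls was made with library totals, where the changes were -0.082, -0.12, -0.25 and -0.15. The calls of nhr-66 and nhr-76 were also lost when any of several single libraries was left out, among them control replicate 1.

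Known target genes of NHR-49 split in direction. Of 7 targets, all 7 were called in the atp-2 group, 2 higher and 5 lower. The acyl-CoA synthetase gene acs-2, a standard readout of NHR-49 in fasting, rose from 31.003 ± 6.10 to 230 ± 18.3 CPM (log2 fold change 2.89, edgeR adjusted p = 2.26e-13), and the flavin monooxygenase gene fmo-2 rose by 1.32. The delta-9 desaturase genes fat-5 and fat-6 fell, by 1.41 and 0.74 on the log2 scale, and the carnitine palmitoyltransferase gene cpt-5 and the beta-oxidation gene hacd-1 fell by 2.19 and 1.37. The desaturase gene fat-7 was barely detected, at 1.14 ± 0.623 CPM in the controls and 0.122 ± 0.115 CPM with atp-2 RNAi. Its lower call was lost with library totals.

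Of the 3 vitamin B12 and propionate regulators, nhr-68 was called higher. NHR-10 and NHR-68 switch on the shunt that breaks down propionate when vitamin B12 is scarce. The nhr-10 mRNA was 31.4, 34.8 and 30.2 CPM in the controls and 33.5, 30.5 and 27.7 CPM with atp-2 RNAi, overlapping and not called. The nhr-68 mRNA was 74.3, 73.8 and 68.2 CPM and 102, 104 and 106 CPM, without overlap (log2 fold change 0.53, edgeR adjusted p = 0.0332). That call was lost whenever 1 of these 6 libraries was left out, at values of 0.49 to 0.55, and the value was 0.79 with library totals. All 5 shunt genes were higher: hphd-1 by 2.14, hach-1 by 1.48, ech-6 by 1.03, alh-8 by 0.71 and acdh-1 by 3.33 (all log2). The acdh-1 mRNA was 123.4, 146.8 and 110.8 CPM in the controls and 1199.6, 1462.5 and 1181.3 CPM with atp-2 RNAi, without overlap. Its call was lost under 11 of 17 alternatives, but its value stayed at 3.23 to 3.60. The call was kept when the 6 compared libraries were fitted alone (3.35). The receptor nhr-114, which protects against toxic dietary metabolites when B12 is low, was at 0.24 and not called.

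Among the 6 receptors for xenobiotics, hypoxia, iron and pathogens, nhr-57 rose and 2 fell. The iron and immunity regulator nhr-14 was at -0.42 and nhr-86, a sensor of bacterial phenazines, at -0.30 (log2), and neither was called with library totals (-0.15 and -0.026). The xenobiotic and sterol receptor nhr-8 had 55.7, 51.3 and 63.1 CPM in the controls and 58.8, 55.9 and 57.6 CPM with atp-2 RNAi, not called. Of 3 targets of NHR-86 and NHR-176, all 3 fell: the infection response genes irg-4 (-0.84) and irg-5 (-0.71) and the cytochrome P450 gene cyp-35D1 (-1.57), the irg-4 and cyp-35D1 calls being lost when certain single libraries were left out.

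In the prp-19-labelled background, 11 of 175 receptors (6.29%) were called for atp-2 RNAi, 7 higher and 4 lower. Of all genes tested 9.77% were called, 5.06% higher and 4.72% lower. None of the 11 had overlapping groups, and of all genes called 95.5% had none. At least 2-fold changes numbered 3, all higher, beside 1.59% of all genes tested. This count depended on prp-19-labelled replicate 3: without it 31 receptors were called, 18 higher and 13 lower, and all 11 remained. With the 6 libraries of this comparison alone, 7 were called.

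The receptors that rose most here were nhr-210, nhr-68 and nhr-115. The level of nhr-210 (V:517801-519545, minus strand) was 3.41, 5.47 and 5.21 CPM without and 11.01, 11.1 and 11.8 CPM with atp-2 RNAi (log2 fold change 1.26, SE 0.16, edgeR adjusted p = 4.05e-05). All 3 libraries with atp-2 RNAi lay above all 3 without. For nhr-68 the values were 44.4, 40.7 and 74.2 CPM and 127, 121 and 119.04 CPM (log2 fold change 1.21, SE 0.17, edgeR adjusted p = 9.32e-04). Replicate 3 without atp-2 RNAi stood well above replicates 1 and 2, yet below every library with atp-2 RNAi. For nhr-115 they were 3.29, 4.29 and 3.52 CPM and 8.29, 8.99 and 7.67 CPM (log2 fold change 1.15, edgeR adjusted p = 4.84e-04). Also called higher were nhr-101 (0.91), whose partner pms-2 on the other strand rose by 0.79, nhr-114 (0.80) and nhr-132 (0.50), the last not with library totals (0.42), with these 6 libraries alone, or without replicate 3 of the combined group. The nhr-61 gene passed narrowly, from 11.2, 9.65 and 11.6 CPM to 13.9, 14.3 and 14.5 CPM (log2 fold change 0.40, edgeR adjusted p = 0.0376), and lost its call under several alternatives, DESeq2 and library totals among them.

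The 4 receptors that fell with atp-2 RNAi in this background were nhr-11, nhr-105, nhr-49 and nhr-19. The fasting regulator nhr-49 was at 90.0, 98.1 and 80.2 CPM and with atp-2 RNAi at 72.2, 65.2 and 65.5 CPM, without overlap (log2 fold change -0.40, SE 0.08, edgeR adjusted p = 0.00297). For nhr-11 the values were 30.0, 28.2 and 26.4 CPM and 16.2, 18.1 and 19.7 CPM (log2 fold change -0.65, edgeR adjusted p = 3.76e-04). The log2 fold changes of nhr-105 and nhr-19 were -0.41 and -0.39, and both calls were lost without replicate 2 of either group or with these 6 libraries fitted alone. Of the 5 propionate shunt genes 4 were called higher, hphd-1 by 2.21, ech-6 by 1.40, hach-1 by 1.03 and alh-8 by 0.53. The ech-6 and alh-8 calls were lost when these 6 libraries were fitted alone. The remaining gene, acdh-1, was at 3.75 and not called (edgeR adjusted p = 0.0631). It had 3.99, 5.68 and 139 CPM without and 593, 695 and 676 CPM with atp-2 RNAi, without overlap. Its value was 7.08, and called, without prp-19-labelled replicate 3. Of the 7 NHR-49 targets, acs-2 rose by 1.49, from 16.2 ± 0.484 to 45.7 ± 2.64 CPM, and 5 were called lower. The largest fall was that of fat-7, from 21.2 ± 6.88 to 1.68 ± 0.602 CPM. The calls of cpt-5 (-0.44), fat-6 (-0.27) and hacd-1 (-0.52) were lost when the 6 libraries of this comparison were fitted alone. Those of fat-7 and fat-5 (-0.51) held in every refit.

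The atp-2 effects in the control and prp-19-labelled backgrounds share no library. The test was passed in both by 9 receptors, 20.5% of the 44 called in the former and 81.8% of the 11 called in the latter, and 8 of the 9 (88.9%) had the same sign. Over all genes tested the shares were 18.4% and 64.3%, with 86.7% of the same sign. Of these, 6 rose in both (nhr-61, nhr-68, nhr-101, nhr-115, nhr-132 and nhr-210), and nhr-11 and nhr-49 fell in both. The exception was nhr-19, which rose in the control background, from 16.9 ± 1.88 to 23.02 ± 1.31 CPM, and fell in the prp-19-labelled one, from 21.4 ± 1.45 to 16.4 ± 1.78 CPM. Its partner on the other strand, mrpl-53, was at 0.55 and 0.44 in the same comparisons. Across the 175 genes the 2 sets of log2 fold changes correlated with r = 0.302, beside 0.312 over all genes tested, a description across genes, which are not independent replicates.

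**Figure D3:**
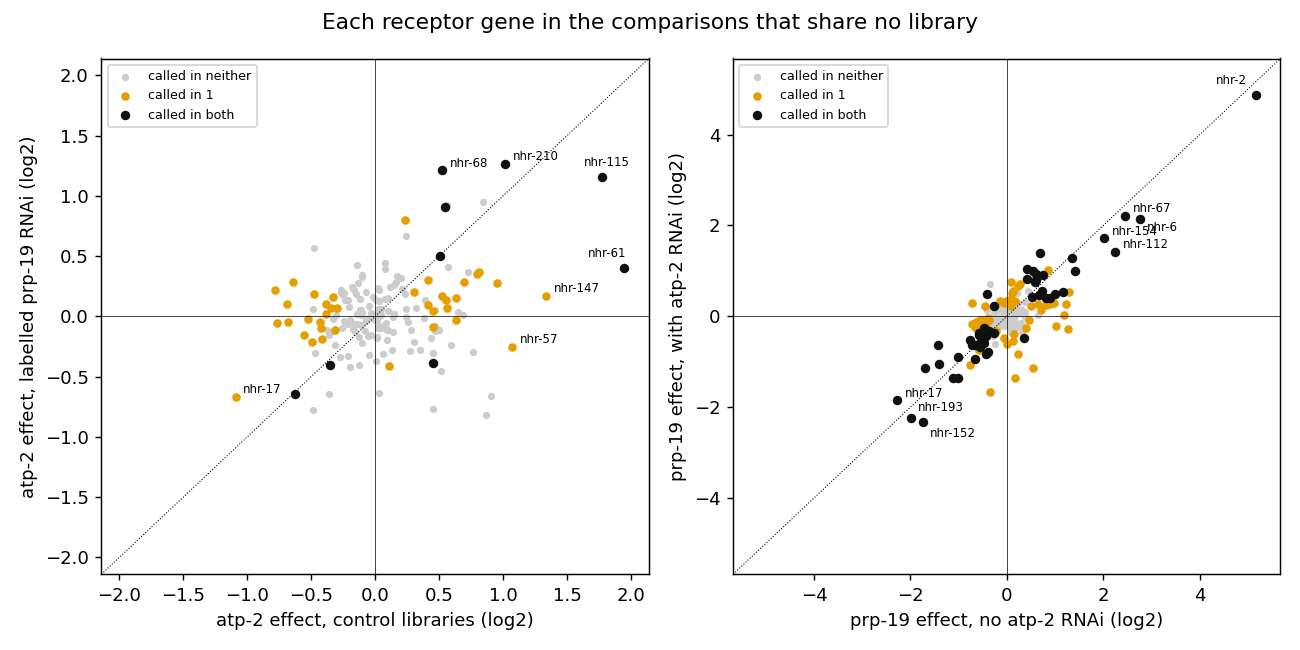
Log2 fold changes of the 175 receptor genes in pairs of comparisons that share no library, with the atp-2 effect on the left (control against prp-19-labelled background) and the prp-19 effect on the right (without against with atp-2 RNAi). Black points passed the test in both comparisons, orange points in 1, and the dotted line marks equal change. The genes nhr-61 and nhr-57 lie far below the line on the left, and most black points on the right lie near it.

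Whether the atp-2 effect differed between the RNAi backgrounds was tested with the interaction, the effect in the prp-19-labelled background minus that in the control background. It passed for 19 receptors (10.9%), 10 higher and 9 lower, beside 19.3% of all genes tested (10.1% higher and 9.14% lower). It passed and reached 2-fold in 5 receptors (2.86% of the 175), beside 6.13% of all genes tested. In 17 of the 19 the atp-2 change was smaller in the prp-19-labelled background, where 3 of the 19 were called for atp-2, against 15 in the control background. Over all genes tested, too, fewer were called for atp-2 there, 9.77% against 34.1%. The matching counts over all genes with a called interaction were not made. The number of receptors with a called interaction depended strongly on the processing: with library totals it was 42 (3 higher and 39 lower), which held 12 of the 19. With DESeq2 it was 10, which held 9 of them, and without prp-19-labelled replicate 3 it was 40, which held all 19.

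The clearest interactions were those of nhr-61 and nhr-57. The log2 fold change of nhr-61 was 1.94 in the control background and 0.40 in the prp-19-labelled one, a difference of -1.54 (SE 0.17, edgeR adjusted p = 2.97e-06). For nhr-57 they were 1.07 and -0.25, a difference of -1.33 (SE 0.20, edgeR adjusted p = 2.06e-04). The interaction of lgc-1, which overlaps nhr-57 on the same strand, was -1.37 (edgeR adjusted p = 0.0312). In the combined group nhr-57 stood at 18.7, 15.8 and 17.9 CPM, below all 3 controls, where atp-2 RNAi alone had brought it to 47.0, 57.3 and 63.2 CPM. In the other direction, nhr-74, nhr-202 and nhr-43 fell with atp-2 RNAi in the control background and stood at 0.22, 0.28 and 0.10 in the prp-19-labelled one, with interactions of 1.01, 0.92 and 0.79 (edgeR adjusted p = 0.00137, 9.68e-04 and 0.00456). The interactions of these 5 receptors and of nhr-19 (-0.84) passed in every refit tried, with those of nhr-74, nhr-202 and nhr-43 at 0.65, 0.57 and 0.46 with library totals. That of nhr-23 (0.71) did not pass with library totals (0.36), with DESeq2 (0.74), or without replicate 3 of the atp-2 or of the combined group. The mRNA of atp-2 itself fell by 2.6 in the control background and by 1.01 in the prp-19-labelled one, a difference of 1.59 (edgeR adjusted p = 3.33e-08); its part in the receptor changes was not tested.

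The prp-19-labelled libraries differed from the controls in many receptors, in both directions. Without atp-2 RNAi, 81 of 175 receptors (46.3%) were called, 36 higher (20.6%) and 45 lower (25.7%). Of all genes tested 58.5% were called, 30% higher and 28.5% lower. The median log2 fold change was -0.02 over the receptors and 0.06 over all genes tested. Replicates of the groups did not overlap in 74 of the 81 (91.4%), beside 93.2% of all genes called. At least 2-fold changes numbered 23 (13.1%), 14 higher and 9 lower, beside 22.1% of all genes tested. With library totals 94 were higher and 8 lower, while the median of all genes tested moved to 0.55. In 48 of the 81, prp-19-labelled replicate 3 lay nearest of the 3 to the control mean.

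The most extreme rise was that of nhr-2, a receptor gene known from embryonic development. Its counts were 1, 0 and 0 in the controls and 18, 23 and 25 in the prp-19-labelled libraries. The groups were 1 count against 66 counts in all, a ratio of 45.4 after scaling, with a 95% interval of 7.88 to 1820 (exact) and an edgeR adjusted p of 3.96e-06. PCR reads without molecular identifiers are not independent molecules, so such intervals cover counting error only. Where both sides had atp-2 RNAi, the counts were 0, 1 and 0 against 19, 10 and 13, a ratio of 40.5 (interval 6.89 to 1640, edgeR adjusted p = 1.35e-05). The summed germline markers were about 3 times as high in the prp-19-labelled libraries, most of it from glh-1 (33.3 ± 6.47 against 144 ± 14.9 CPM). The 6 early embryo markers summed to 1.94 to 3.37 CPM in the controls and 1.17 to 1.29 CPM in the prp-19-labelled libraries, with 4 and 2 of them at 0. Nearly all of that sum was pie-1 (2.72 ± 0.680 and 1.09 ± 0.189 CPM), the only 1 of the 6 that was tested, so it describes 1 gene. The part of these markers in the rise of nhr-2 was not tested.

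Of the 8 moulting and conserved developmental receptors tested, 5 were called higher, and the other 3 were not called. The NR4A relative nhr-6, which acts in the spermatheca, had 2.55, 1.77 and 1.77 CPM in the controls and 15.7, 21.2 and 4.04 CPM in the prp-19-labelled libraries (log2 fold change 2.76, SE 0.63, edgeR adjusted p = 0.00446). Replicate 3 was much lower than replicates 1 and 2 but above the controls. The tailless relative nhr-67, a regulator of neuron and anchor cell fate, had 1.44, 1.06 and 1.41 CPM and 7.64, 9.65 and 4.17 CPM, again without overlap (log2 fold change 2.45, SE 0.31, edgeR adjusted p = 1.93e-06). The gene nhr-23 rose from 7.34, 7.99 and 7.60 to 12.5, 13.1 and 11.5 CPM (0.69), nhr-41 by 0.54 and nhr-85 by 0.41. With library totals these rises were 1.18, 1.01 and 0.89, and that of nhr-85 was not called by DESeq2 (0.37) or without control replicate 2 or without replicate 2 or 3 of the prp-19-labelled group. The FTZ-F1 relative nhr-25 was at 4.04 ± 0.524 and 3.24 ± 0.498 CPM, not called. Of the receptors for tissue development besides nhr-2, nhr-40, which acts in muscle, was called at -0.37 but turned to 0.12 with library totals, and nhr-31, which shapes the excretory cell, was at -0.05 and not called.

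**Figure D4:**
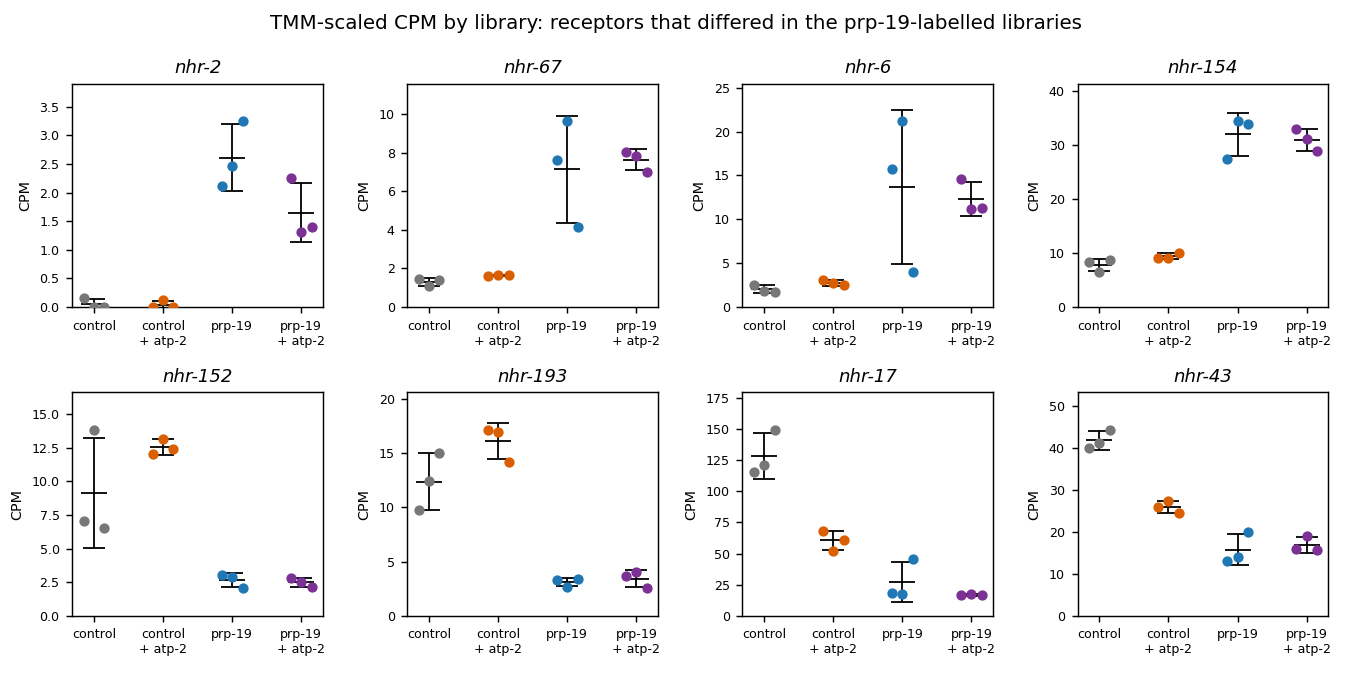
TMM-scaled CPM of 8 receptor genes that differed between the controls and the prp-19-labelled libraries, in each of the 12 libraries (points), with the group mean and SD (bars, n = 3). For nhr-154 and nhr-193 the prp-19-labelled and combined groups were far apart from the controls and the atp-2 group, and for nhr-6 and nhr-17 prp-19-labelled replicate 3 lay between the others and the controls.

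Less studied receptors on chromosome V were also among those that moved most. The level of nhr-154 (V:12101293-12103383, plus strand) was 8.29, 6.57 and 8.66 CPM in the controls and 27.5, 34.5 and 34.0 CPM in the prp-19-labelled libraries (log2 fold change 2.02, SE 0.13, edgeR adjusted p = 2.16e-10). Every library of the second group was more than 3 times any control. That of nhr-112 was 5.74, 6.92 and 6.18 CPM and 38.3, 36.1 and 14.6 CPM (log2 fold change 2.25, edgeR adjusted p = 4.41e-04), and that of nhr-50 rose by 1.41, beside its neighbour nhr-63 at 1.35. In the other direction, nhr-193 (V:16342308-16344401, plus strand) fell from 9.73, 12.4 and 15.02 CPM to 3.29, 2.68 and 3.39 CPM (log2 fold change -1.99, SE 0.20, edgeR adjusted p = 8.46e-08). The lowest control library was nearly 3 times the highest of the other group. The level of nhr-152 went from 7.02, 13.8 and 6.54 CPM to 3.05, 2.89 and 2.08 CPM (log2 fold change -1.74), while its direct neighbour nhr-94 was at 0.40, a call that 6 alternatives lost, DESeq2 among them.

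Among receptors of fat, vitamin B12 and xenobiotic metabolism, 6 of the 7 changes called without atp-2 RNAi were falls. With library totals nhr-114 alone was called lower. All 3 vitamin B12 and propionate regulators were called lower. The level of nhr-114 was 45.8, 44.9 and 59.4 CPM in the controls and 13.04, 12.5 and 21.0 CPM in the prp-19-labelled libraries (log2 fold change -1.70, SE 0.17, edgeR adjusted p = 9.56e-07), without overlap. The nhr-10 gene fell by 0.38 and nhr-68 by 0.45 on the log2 scale, but with library totals nhr-10 was at 0.11 and nhr-68 at 0.011, both turned in sign. The nhr-68 value was -0.79 without prp-19-labelled replicate 3 and -0.30 without replicate 2, and its call was lost under 13 alternatives. Of the 5 propionate shunt genes 4 were called lower, hphd-1 by 1.49, ech-6 by 1.48, hach-1 by 1.14 and alh-8 by 0.50. The alh-8 call was lost with library totals (-0.037). The remaining gene, acdh-1, was at -1.38 and not called. The largest fall of any receptor was that of nhr-17, from 115.1, 121 and 149 CPM to 17.97, 17.8 and 45.3 CPM (log2 fold change -2.27, SE 0.32, edgeR adjusted p = 2.77e-04), with replicate 3 nearest the controls. The nhr-43 and nhr-53 genes fell by 1.42 and 1.41.

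Of the 6 fat and fasting regulators, nhr-62 was called and the other 5 were not. It stood at -0.63 (log2) and was not called with library totals (-0.15). The nhr-49 mRNA was 90.9 ± 4.51 CPM in the controls and 89.4 ± 8.95 CPM in the prp-19-labelled libraries, a log2 fold change of -0.02 that was not called, and 0.47 with library totals. Its 7 targets were all called, 6 lower and fat-7 higher, though fat-6 was not called with library totals (-0.085). The fat-7 mRNA stood at 1.14 ± 0.623 CPM in the controls and 21.2 ± 6.88 CPM in the prp-19-labelled libraries (log2 fold change 4.21, edgeR adjusted p = 3.19e-07), and fmo-2 at 11.2 ± 1.75 and 1.73 ± 1.55 CPM (log2 fold change -2.75). Among xenobiotic and stress receptors, nhr-45, which induces detoxification genes when mitochondria fail, rose from 30.9, 31.1 and 30.4 CPM to 51.6, 53.9 and 40.4 CPM (log2 fold change 0.66, 1.16 with library totals, edgeR adjusted p = 2.08e-05). The groups did not overlap. The thiabendazole-response receptor nhr-176 was called at -0.72 and nhr-8 at -0.44, neither with library totals (-0.24 and 0.056, the latter turned in sign).

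When both sides had atp-2 RNAi, 80 receptors (45.7%) were called between the combined and the atp-2 group, 38 higher (21.7%) and 42 lower (24%). Of all genes tested 53% were called, 26.5% in each direction. The groups did not overlap for any of the 80, as for 98.1% of all genes called. Changes of at least 2-fold numbered 20 (11.4%), 9 higher and 11 lower, beside 17.8% of all genes tested, and with library totals the calls were 43 higher and 27 lower. Of the 6 genes that rose most, 5 were also among the 6 that rose most without atp-2 RNAi. The 6 were nhr-2, nhr-67 (2.21), nhr-6 (2.15), nhr-154 (1.72), nhr-112 (1.43) and nhr-23 (1.40, all log2). Here the conserved receptors again counted 5 called higher of 8 tested. The metabolic lists differed from those without atp-2 RNAi. Of the 6 fat and fasting regulators, nhr-80, nhr-66 and nhr-13 were called higher and none lower. The nhr-66 and nhr-13 calls were lost under 5 and 9 alternatives. Of the 3 vitamin B12 and propionate regulators 2 were called lower. Of the 6 receptors for xenobiotics, hypoxia, iron and pathogens, 3 were called higher and 3 lower. The strongest falls were those of nhr-152, from 12.03, 13.2 and 12.4 CPM to 2.84, 2.48 and 2.16 CPM (log2 fold change -2.33, edgeR adjusted p = 2.01e-07), and nhr-193, from 17.2, 16.98 and 14.2 CPM to 3.67, 4.04 and 2.59 CPM (log2 fold change -2.24, edgeR adjusted p = 4.34e-09). Neither pair of groups overlapped. They were followed by nhr-17 (-1.85), nhr-57 (-1.67), nhr-61 (-1.36) and nhr-230 (-1.36). The wars-1 gene, on the other strand of nhr-230, rose by 1.03.

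The prp-19 comparisons without and with atp-2 RNAi also share no library. Of the receptors, 55 were called in both, 67.9% of the 81 and 68.8% of the 80, and 52 of the 55 had the same sign (94.5%), 22 higher and 30 lower. Over all genes tested the shares were 69.4% and 76.6%, with 95.5% of the same sign. Across the 175 genes r was 0.82, beside 0.772 over all genes tested. The 3 of opposite sign were nhr-46 (-0.26 without and 0.24 with atp-2 RNAi), nhr-19 (0.35 and -0.49) and nhr-202 (-0.42 and 0.50), named after their values were seen. DESeq2 did not call nhr-19 without atp-2 RNAi, and the nhr-46 call with atp-2 RNAi was lost under 9 alternatives, DESeq2, RLE factors and the replicate block among them. With library totals the values without atp-2 RNAi turned to 0.065 for nhr-202 and 0.22 for nhr-46. Over the 4 pairwise comparisons 116 receptors (66.3%) were called at least once and 59 were not, beside 74.8% of all genes tested called at least once.

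**Figure D5:**
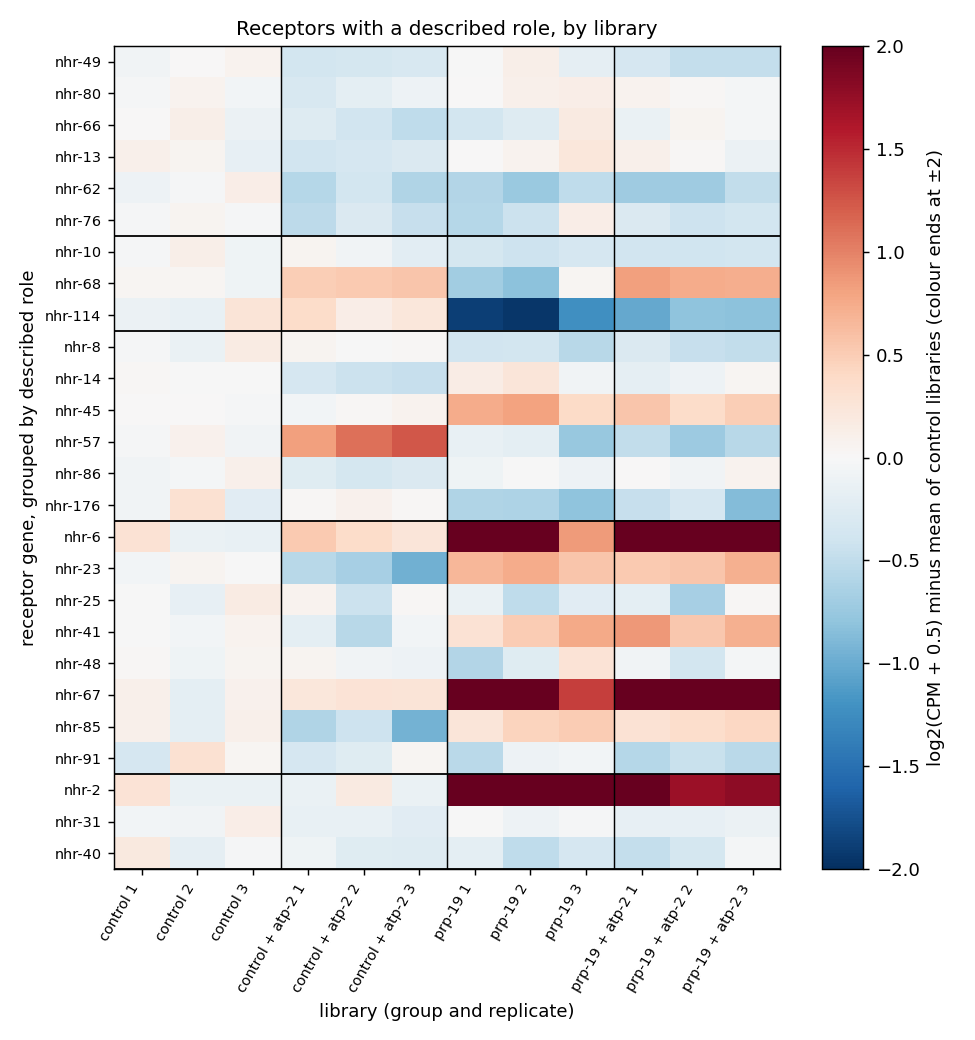
Log2 level relative to the mean of the control libraries (colour, ends at -2 and 2) of the receptors with a known role. Each of the 12 libraries is a column, the controls included, and levels are TMM-scaled CPM plus 0.5. The conserved receptors nhr-6, nhr-67 and nhr-23 were higher in the prp-19-labelled and combined groups, nhr-114 was lower in both, and nhr-57 was higher than in the control group where atp-2 RNAi was given alone.

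Receptors act through coregulators and ligands. Of 8 coregulator genes, that of MDT-15, the Mediator subunit through which NHR-49 activates genes, was the one that fell in both prp-19 comparisons, from 149 ± 15.1 to 96.2 ± 20.4 CPM without atp-2 RNAi (log2 fold change -0.64, -0.17 and not called with library totals) and by 0.55 with it. The kinase module genes cdk-8 and cic-1 were called higher in both (cdk-8 without atp-2 RNAi not by DESeq2), by 0.32 and 0.59 without and by 0.44 and 0.82 with atp-2 RNAi. In the atp-2 comparison of the control background their values were 0.05, -0.19 and -0.25, not called. Of the nuclear receptors that carry another name, daf-12, the receptor for dafachronic acids, was at 46.9 ± 6.40 CPM in the controls and 37.4 ± 7.66 CPM in the prp-19-labelled libraries. Its log2 fold change of -0.33 was narrowly called (edgeR adjusted p = 0.0488) and turned to 0.14 with library totals. The call was also lost with DESeq2, with the compared libraries alone and when any of several single libraries was left out. The sex determination receptor sex-1 was called higher in both prp-19 comparisons (0.50 and 0.41) and in the atp-2 group (0.50), each call being lost under several alternatives. Of 6 genes tested for sterol handling and dafachronic acid synthesis, 1 was called higher and 2 lower without atp-2 RNAi: the cytochrome P450 gene daf-9 was 4.16 ± 0.453 CPM in the controls and 8.25 ± 1.21 CPM in the prp-19-labelled libraries (0.98), and the oxygenase gene daf-36 was 42.9 ± 3.27 and 25.6 ± 2.93 CPM (-0.75, and -0.26, not called, with library totals). The reductase gene emb-8 was at -0.40 and turned to 0.085 with library totals.

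Calls for atp-2 in the control background were spread unevenly over the chromosomes. Of 108 receptors on chromosome V, 18 (16.7%) were called higher and 4 (3.7%) lower, beside 17% and 18.2% of the 2557 genes tested on that chromosome. Of 8 receptors on chromosome I, 6 (75%) were called lower, beside 12.9% of 2031 genes tested there, and among these 6 were nhr-23, nhr-49, nhr-62, nhr-69, nhr-74 and nhr-85. With library totals 4 of these 6, nhr-49, nhr-62, nhr-69 and nhr-85, were not called. Of the 55 neighbouring pairs, 6 had both genes called for atp-2 in the control background, 5 of them the same way, such as nhr-115 with nhr-226 and nhr-202 with nhr-203. For the prp-19 effect, 10 pairs had both genes called without atp-2 RNAi, 6 of them the same way, and 11 with it, 10 the same way, such as nhr-50 with nhr-63 (0.99 and 1.29) and nhr-87 with nhr-92 (-0.77 and -0.89). Some pairs share a gene, and neighbouring pairs among other genes were not counted, so these pair counts have no background beside them. The differences by position and by neighbour were not tested.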

How the data were processed

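Polyadenylated RNA of whole worms was sequenced, per the labels, and the authors deposited 1 table of raw read counts per gene for 12 libraries in 4 groups of 3, matched to the samples by title. The submitters' processing notes name FastQC, STAR 2.7.5c, HISAT2 2.1.0, R 4.0.5, DESeq2 and the builds ce11 and WBcel235 without saying what each did. The counting program, annotation and strand setting were not given in the sources used here, and a gene's reads could include those of overlapping genes or near copies. Receptor genes were chosen by symbol and a minimum of 10 counts in 3 libraries. The members, lists and comparisons were chosen with earlier results of these data known.

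Counts were fitted over all 12 libraries with edgeR 4.0.16 in R 4.3.3 (filterByExpr by group, TMM factors, robust quasi-likelihood fit, 1 coefficient per group, 8 residual degrees of freedom), with Benjamini-Hochberg adjustment over 12850 genes, called below 0.05. The fit was tried on simulated counts with the same spread setting for every gene and changes in the atp-2 group alone. That simulation had neither the outlying replicate nor the group differences in TMM factors seen here, so it is no check of these calls. A log2 fold change is given with its SE, the fold change divided by the square root of the F statistic. CPM are counts scaled to TMM-adjusted library size, and RPKM divide these by the exon length in the Ensembl annotation of WBcel235. Coordinates come from the RefSeq table of the same assembly. Totals of 6731808 to 8802767 counts per library set the precision. Alternatives were RLE factors, library totals, DESeq2 1.42.0, a replicate block, dropping the filter on low counts, the compared libraries alone, a 2-fold minimum and leaving out each library. Statements that a call was kept or lost refer to the refits, not to the 2-fold minimum. Genes were named by rule: for each comparison the 6 largest called changes in each direction among receptors with a mean of at least 1 CPM, the 10 highest by RPKM, and the lists of known roles. Classes of DNA-binding domain were not analysed here, and no sequences were used here.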

Additional observations from a re-analysis of the deposited data

Results flagged for a closer look

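The atp-2 effect differed between the RNAi backgrounds, by the edgeR interaction test with adjusted p under 0.05, for 19 receptor genes. The values here are the log2 effect in the prp-19-labelled background minus that in the control one. It was negative for nhr-275 (-1.69), nhr-206 (-1.57), nhr-61 (-1.54), nhr-57 (-1.33), nhr-19 (-0.84), nhr-94 (-0.66), nhr-18 (-0.54), nhr-105 (-0.52) and nhr-120 (-0.49). It was positive for nhr-74 (1.01), nhr-202 (0.92), nhr-43 (0.79), nhr-23 (0.71), nhr-20 (0.67), nhr-85 (0.63), nhr-62 (0.51), nhr-46 (0.49), nhr-104 (0.42) and nhr-69 (0.40). The 2 most negative values belonged to scarce transcripts. For nhr-275 the levels were 0.915 ± 0.133 CPM in the controls, 1.67 ± 0.147 CPM in the atp-2 group, 1.34 ± 0.197 CPM in the prp-19-labelled group and 0.750 ± 0.241 CPM in the combined group, and its interaction was lost with DESeq2, without the filter on low counts and without any of 5 single libraries. For nhr-206 they were 1.53 ± 0.195, 2.89 ± 0.689, 3.73 ± 1.55 and 2.39 ± 0.531 CPM, and its interaction was lost with DESeq2 and without any of 5 single libraries. In 2 of the 19, nhr-105 and nhr-104, the atp-2 change was the larger in the prp-19-labelled background: -0.41 there against 0.11 in the control background for nhr-105, and 0.24 against -0.18 for nhr-104. Apart from nhr-61, nhr-57, nhr-19, nhr-74, nhr-202 and nhr-43, the other 13 interactions were each lost in at least 1 refit.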

How the results depend on the processing

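Counts of called receptors kept within 1.5 times the value in the report under RLE factors, without the filter on low counts and under the replicate block, where they were 42 and 10 for atp-2 in the control and prp-19-labelled backgrounds, 81 and 77 for prp-19 without and with atp-2 RNAi, and 17 for the interaction. Deviations of same-numbered libraries from their group means correlated at -0.105 to 0.12. With 3 libraries per group, such values cannot decide whether same-numbered libraries were paired. Requiring a 2-fold change left 6, 3, 23 and 20 receptors and 5 interactions. The compared libraries alone gave 7 for atp-2 in the prp-19-labelled background. The interaction count was 42 with library totals and 10 with DESeq2. Leaving out single libraries gave 8 to 31 for atp-2 in that background and 13 to 40 interactions, the highest values without prp-19-labelled replicate 3, and 32 to 55, 71 to 88 and 66 to 85 for the other comparisons. Library totals turned the prp-19 effect without atp-2 RNAi to 0.47 for nhr-49, 0.44 for nhr-31, 0.42 for nhr-86, 0.32 for nhr-66, 0.31 for nhr-48, 0.22 for nhr-46, 0.12 for nhr-40, 0.11 for nhr-10, 0.072 for nhr-101, 0.065 for nhr-202, 0.056 for nhr-8, 0.011 for nhr-68, 0.0042 for nhr-69, 0.14 for daf-12, 0.36 for din-1, 0.085 for emb-8 and 0.39 for ncr-1. The cause was not tested. Of 220 calls on named genes, 135 held in every refit and 85 were lost in at least 1, the 2-fold minimum not being counted. Depth limits the scarce receptors most: 20 of 175 had fewer than 10 counts in some library.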
